A study of Mus musculus with 6 samples.

Results

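The genes described here are 10 regulators and signals of the dorsal neural tube, chosen by name. The 6 roof plate genes were Lmx1a, Gdf7, Wnt1, Wnt3a, Msx1 and Msx2, and the 4 dorsal progenitor genes were Atoh1, Olig3, Pax3 and Pax7. Probes were matched to them by gene symbol, through the platform annotation or the description in the array files. Of the 10 genes, 9 had a probe, among 18702 genes named on the array. With 2 probes for Pax3 this gave 10 of the 34967 gene probes. Gdf7 was matched by no probe and was not analysed here. RNA came from mouse tissue at embryonic day 9.5, cut just behind the forelimb bud. The 3 Fkbp8 mutant samples (replicates a, b and c) and the 3 wildtype samples (d, e and f) descend from crosses between heterozygous carriers. The labels give neither the nature of the Fkbp8 allele nor the strain, the sex or the number of embryos in a sample, and the source label of mutant a names embryos in the plural. Nothing states that the samples come from separate litters, so the p-values cover only the variation among these 6 samples. Every sample had a CodeLink array to itself, read in 1 colour.

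The roof plate is the strip of cells along the dorsal midline of the neural tube. It secretes BMP proteins, the related factor Gdf7 and the WNT ligands Wnt1 and Wnt3a, and these signals pattern the progenitors beside it and sustain their division. The progenitors next to the roof plate express Atoh1 and Olig3, and Pax3 and Pax7 mark a broader dorsal territory. The dorsal signals and Sonic hedgehog from the floor plate together set the position of each progenitor domain along the dorsoventral axis. The title of the series names this axis, and the comparison of mutants with wildtypes is given here for its dorsal end. Several of these genes also work elsewhere in the dissected tissue. Wnt3a is expressed in the tailbud, Pax3 and Pax7 in the dermomyotome, and Msx1 and Msx2 in limb and surface tissues.

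A probe counted as above background where the scanner software gave the spot its good or saturated mark, which 57.6% to 61.8% of gene probes had on an array, with mutant c the lowest. The dissected tissue carried markers of its label, with 9 of 9 posterior Hox genes and 11 of 11 neural progenitor genes bright enough to test. The forebrain and midbrain genes Otx2 and Emx1 were above background on 0 of 6 arrays, whereas the probe of Six3, another forebrain gene, had log2 intensities of 10.86 in wildtype and 11.03 in mutants. The Fkbp8 probe had log2 intensities of 10.57, 10.74 and 10.67 in wildtypes and 6.28, 6.30 and 6.11 in mutants, where it was above background on 0 of 3 arrays. Fkbp8 was at least 18.8-fold lower in mutants (limma adjusted p = 1.18e-07). On the Y chromosome, Uty, Eif2s3y and Ddx3y were detected above background in 3 of 3 mutants and 0 of 3 wildtypes, and for Xist the pattern was the reverse. Genotype and sex therefore cannot be told apart for any gene below.

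Wnt3a and Olig3 were lower in all 3 mutants than in any wildtype, by 1.39-fold and 1.32-fold, but neither passed the test over all probes. Of the 10 member probes, 8 were tested, and these were above background on all 6 arrays. At an adjusted p under 0.05 in limma, 0 of the 8 passed, where 26 of 21688 tested probes (0.12%) passed, 0.0553% lower and 0.0646% higher in mutants. At an unadjusted p under 0.05, 4 of the 8 were lower (Wnt3a, Olig3, Msx1 and Wnt1) and 0 higher. Over all tested probes 12.2% were at that level, 5.81% lower and 6.43% higher. After normalization the groups did not overlap at 5 of the 8 probes, all lower in mutants. Such separation held for 19.7% of all tested probes, with 8.56% lower and 11.2% higher. Msx1, 1 of the 5, overlapped on the deposited scale. The log2 fold change was negative at 7 of the 8 probes, against 47.6% of all tested probes. The members were chosen with earlier results of these data known, so these counts are a description. In the bulk tissue, fewer cells of a type and less RNA per cell cannot be told apart. Values below are log2 intensities after background correction and quantile normalization. Multiples of the array median are the authors' deposited normalized intensities, on a linear scale.

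**Figure D1:**
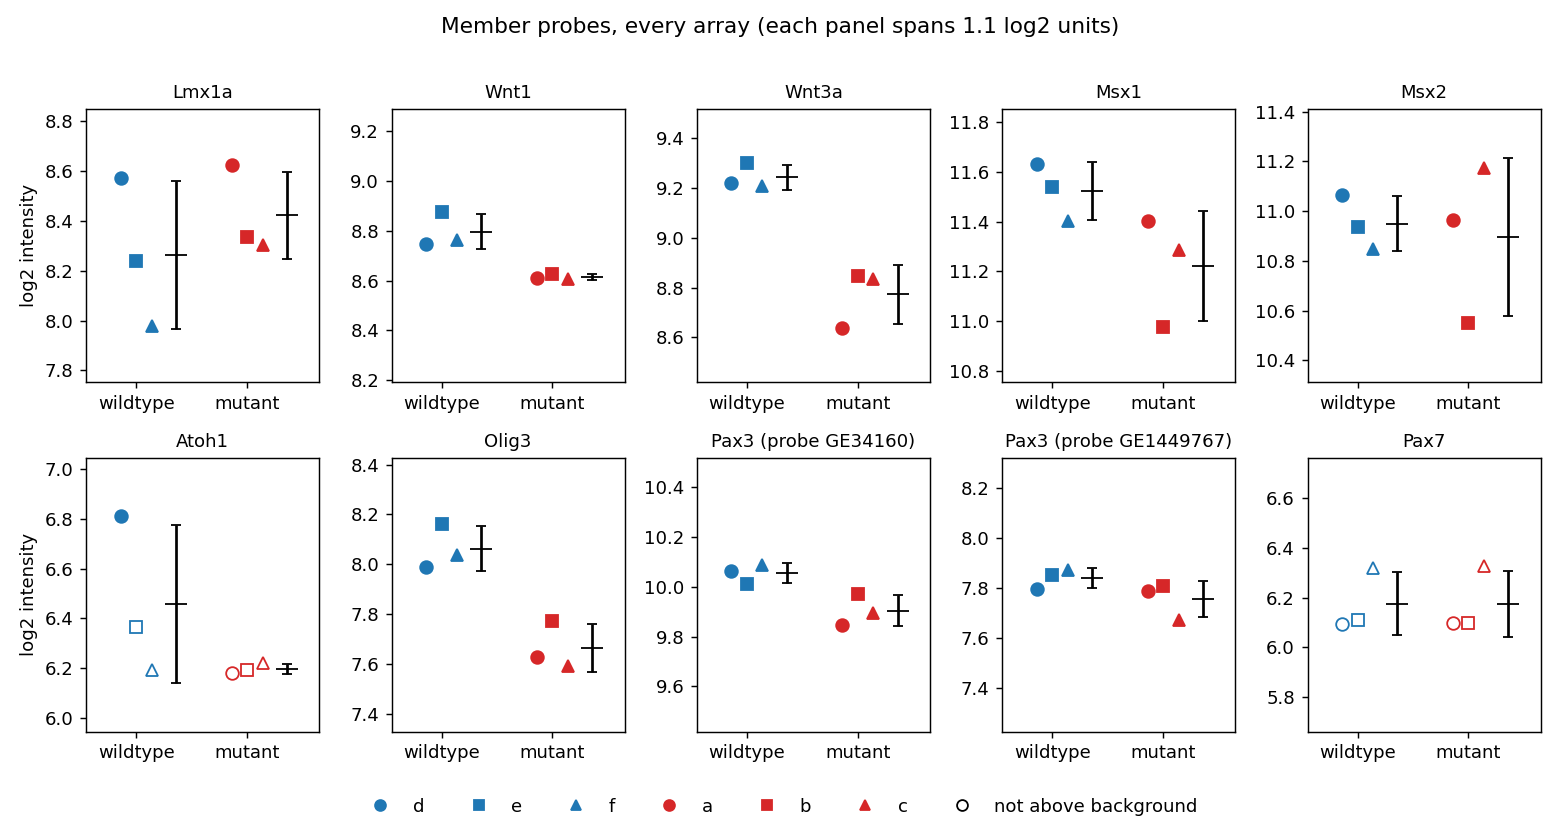
Log2 intensity (y axis, 1 panel per probe) of the member probes on the 3 wildtype arrays (blue) and the 3 mutant arrays (red). Symbols are arrays, bars are mean ± SD (n = 3), and open symbols were not above background. Wnt3a, Olig3, Wnt1, Msx1 and the brighter Pax3 probe show no overlap between groups after normalization (Msx1 by 0.0003), and Atoh1 and Pax7 lie mostly or wholly among open symbols.

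The promoter windows of Wnt3a and Olig3 are shown because these members had the smallest p-values. Each window runs from 250 bases before to 50 bases after the annotated start of the gene, 5′ to 3′ on the gene's strand, with CpG dinucleotides in capitals. The sequences are from RefSeq on GRCm38.p6. The window of Wnt3a lies at chr11:59290702-59291001 on the minus strand, and that of Olig3 at chr10:19356289-19356588 on the plus strand.
Wnt3a: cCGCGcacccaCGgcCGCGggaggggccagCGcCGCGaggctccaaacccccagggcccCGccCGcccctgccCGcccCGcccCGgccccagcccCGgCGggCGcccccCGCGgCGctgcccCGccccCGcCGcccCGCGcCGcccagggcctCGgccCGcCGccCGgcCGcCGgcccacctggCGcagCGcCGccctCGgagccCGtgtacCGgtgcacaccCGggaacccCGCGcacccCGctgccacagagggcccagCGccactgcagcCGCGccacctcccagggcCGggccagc
Olig3: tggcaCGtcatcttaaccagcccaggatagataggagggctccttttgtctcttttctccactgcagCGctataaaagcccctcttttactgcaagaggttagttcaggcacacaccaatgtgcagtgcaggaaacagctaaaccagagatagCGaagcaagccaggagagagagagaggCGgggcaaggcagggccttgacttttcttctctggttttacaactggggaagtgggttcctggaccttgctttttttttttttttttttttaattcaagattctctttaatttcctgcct
The window of Wnt3a held 45 CpG dinucleotides and 86.3% G and C, and that of Olig3 held 4 CpG dinucleotides and 46.0% G and C. The median over all 32851 promoter windows in the table was 7 CpG dinucleotides and 52.7% G and C. Among the 9 members with a window (Pax3 had none), the CpG count ranged from the 4 of Olig3 to the 45 of Wnt3a, with a median of 22. The pair with the smallest p thus lay at opposite ends of the members in CpG content. Motifs were searched on both strands. CTTTGAA (TCF/LEF, the factors of WNT signalling), TGGGTGG (core of the Gli motif), and the E-boxes CAGCTG and CAGATG matched in 0 of the 9 windows. Among all windows, 5.14%, 9.30%, 16.3% and 17.2% held them in that order. GGCGCC, a GC box of BMP-responsive genes, matched in 1 of the 9 windows, that of Wnt3a, starting 150 bases before the start, and in 11.9% of all windows. It overlapped no other motif searched. These matches describe letters only.

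Among the secreted ligands, Wnt3a had the smallest p of any member. WNT3A signals through Frizzled receptors and beta-catenin and promotes division of dorsal progenitors. Its log2 intensity was 9.22, 9.30 and 9.21 in wildtypes d, e and f and 8.64, 8.85 and 8.83 in mutants a, b and c. All mutants lay below all wildtypes, with a gap of 0.36 between the groups, and mutant a was the lowest. The means were 9.24 ± 0.05 in wildtype and 8.77 ± 0.12 in mutants (SD, n = 3 each). The log2 fold change was -0.47 (SE 0.08, 95% confidence interval -0.66 to -0.28, limma adjusted p = 0.137). By unadjusted p Wnt3a ranked 65 of the 21688 tested probes. On the deposited scale it stood at 8.88 ± 0.44 times the array median in wildtype and 6.20 ± 0.39 times in mutants (SD, n = 3 each). With the 6 values alone, an exact permutation test (two-sided) reached p = 0.1, the smallest that 3 against 3 allows, as for every member whose groups did not overlap.

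Wnt1, the other WNT ligand of the roof plate, was lower by a smaller amount. Its log2 intensity was 8.75, 8.88 and 8.77 in wildtypes and 8.61, 8.63 and 8.61 in mutants. The mutants lay close together (SD 0.01, against 0.07 in wildtype) and below every wildtype, with a gap of 0.12. Wnt1 had a log2 fold change of -0.18 between groups (SE 0.07, 95% confidence interval -0.35 to -0.02, limma adjusted p = 0.373). The change stayed negative in every alternative (-0.21 to -0.14). Its unadjusted limma p of 0.0360 was above 0.05 with median centring (0.217) and with the erythroid mean as a covariate (0.0532). It was also above 0.05 without mutant a (0.0700), b (0.0557) or c (0.0689), or without wildtype e (0.134) or f (0.0565). The intervals of Wnt1 and Wnt3a share values, and the difference between the ligands was not tested.

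Tailbud and presomitic genes, from the other tissue that expresses Wnt3a, were lower in mutants in part. Of 17 genes listed and tested 10 were negative and 7 positive, with a median log2 fold change of -0.03 and 0 past the adjusted threshold in limma (4 lower and 0 higher at an unadjusted p under 0.05). Those 4 were the posterior factors Cdx1 (-0.48, SE 0.12) and Nkx1-2 (-0.62, SE 0.18) and the ligands Wnt5a (-0.46, SE 0.16) and Wnt5b (-0.79, SE 0.32). The tailbud marker T differed by 0.10 (SE 0.10). The mean log2 intensity of the list was 8.73 to 8.83 in wildtypes and 8.59 to 8.68 in mutants, without overlap, and its summed deposited level was 190 to 201 array medians in wildtypes and 197 to 201 in mutants. Of 9 posterior Hox genes 7 were negative, with a median of -0.16 and 0 past the adjusted threshold in limma (3 lower and 0 higher at an unadjusted p under 0.05), and Hoxa9 had the smallest p (-0.51, SE 0.09). The part of the tailbud in the Wnt3a difference was not tested.

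Among the transcription factors of the roof plate, Msx1 had a negative difference that depended on the normalization, and the groups overlapped at Msx2 and Lmx1a. Msx1 and Msx2 are related homeodomain factors that respond to BMP signals, and Lmx1a is a LIM homeodomain factor required to form the roof plate. Msx1 had log2 intensities of 11.63, 11.54 and 11.40 in wildtypes and 11.40, 10.97 and 11.29 in mutants. Mutant a lay only 0.0003 below wildtype f, and mutant b was the lowest. On the deposited scale the groups overlapped, with mutant a at 45.3 and wildtype f at 41.3 times the array median. The log2 fold change of Msx1 was -0.30 (SE 0.12, 95% confidence interval -0.58 to -0.03, limma adjusted p = 0.363). The unadjusted p of 0.0322 was above 0.05 in 7 of 18 alternatives, among them the deposited table (0.0861), median centring (0.118), and the fits without mutant b (0.102), wildtype d (0.109) or wildtype e (0.0751), and the change was -0.18 without mutant b.

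Msx2 had log2 intensities of 11.07, 10.93 and 10.85 in wildtypes and 10.96, 10.55 and 11.17 in mutants. Mutant c was the highest of the 6 arrays and mutant b the lowest, so the mutants spanned the wildtypes, with an SD of 0.32 against 0.11. Mutants differed from wildtypes by a log2 fold change of -0.05 (SE 0.15, 95% confidence interval -0.39 to 0.28, limma adjusted p = 0.909). Its sign turned to 0.03 with median centring of each array, to 0.12 without mutant b and to 0.0047 without wildtype d.

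Markers of the limb field and lateral plate, which share tissue with Msx1 and Msx2, had a median log2 fold change of -0.0020 over 13 of 15 listed genes, with 0 past the threshold in limma (1 lower and 0 higher at an unadjusted p under 0.05, Isl1 at -0.26, SE 0.11). Their summed level was 108 to 110 array medians in wildtypes and 96.8 to 121 in mutants, and Hand2 was above background on 0 of 6 arrays. Surface ectoderm markers had a median of -0.03 over 13 of 16 listed genes, with 0 past the threshold in limma (2 lower and 0 higher at an unadjusted p under 0.05, Tfap2c at -0.78, SE 0.22, and Cldn6 at -0.27, SE 0.11). Their mean log2 intensity was 8.39 to 8.49 in wildtypes and 8.20 to 8.33 in mutants, without overlap, and their summed level was 81.5 to 85.5 and 75.8 to 86.8 array medians. The part of these tissues in the Msx1 difference was not tested.

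Lmx1a was the only tested member with a positive difference. Its log2 intensity was 8.57, 8.24 and 7.98 in wildtypes and 8.62, 8.34 and 8.31 in mutants. Mutant a and wildtype d were each the highest of their group, and the groups overlapped. The log2 fold change was 0.16 (SE 0.15, 95% confidence interval -0.19 to 0.50, limma adjusted p = 0.702), and over the alternatives it ranged from 0.02 without wildtype f to 0.31 without wildtype d. On the deposited scale Lmx1a ranged from 3.15 to 5.23 times the array median among wildtypes. Among the wildtypes, d was also the highest for Msx1 and Msx2 and the lowest for Wnt1 and Olig3, so the members did not rank the arrays alike.

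**Figure D2:**
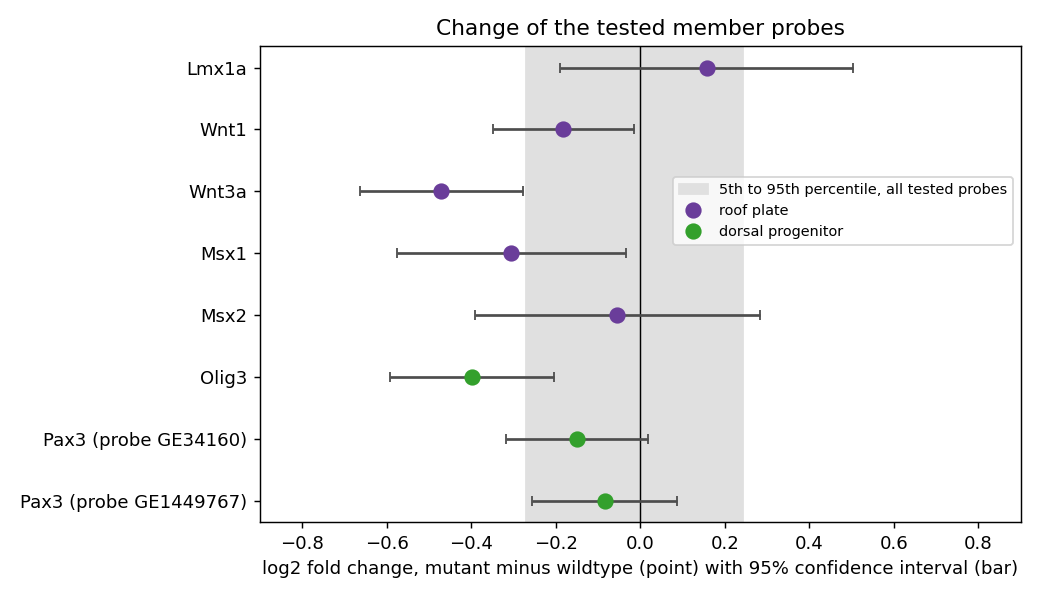
Log2 fold change of mutants against wildtypes (x axis) at the 8 tested member probes (points, violet for roof plate and green for dorsal progenitor), with 95% confidence intervals from limma (bars). The grey band runs from the 5th to the 95th percentile of all 21688 tested probes (-0.27 to 0.24), and Wnt3a, Olig3 and Msx1 lie left of it.

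Of the dorsal progenitor genes, Olig3 was lower in mutants, Pax3 differed by less, and Atoh1 and Pax7 were too dim to compare. Olig3 encodes a bHLH factor of the progenitors that give rise to the dorsal-most interneurons. Its log2 intensity was 7.99, 8.16 and 8.04 in wildtypes and 7.63, 7.77 and 7.59 in mutants. All mutants lay below all wildtypes, with a gap of 0.22, and the SD was 0.09 in wildtype and 0.10 in mutants (n = 3 each). The log2 fold change was -0.40 (SE 0.09, 95% confidence interval -0.59 to -0.20, limma adjusted p = 0.183), which ranked 155 of the tested probes by unadjusted p. On the deposited scale Olig3 stood at 3.40 ± 0.28 times the array median in wildtype and 2.35 ± 0.23 times in mutants (SD, n = 3 each).

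Pax3 encodes a paired-box factor of dorsal progenitors, neural crest and dermomyotome, and the differences at its 2 probes were small and negative. The brighter probe, GE34160, gave 10.06, 10.01 and 10.09 in wildtypes and 9.85, 9.97 and 9.90 in mutants as log2 intensities. The groups were separated by 0.04 there. Its log2 fold change was -0.15 (SE 0.07, 95% confidence interval -0.32 to 0.02, limma adjusted p = 0.451). The dimmer probe, GE1449767, gave 7.80, 7.85 and 7.87 in wildtypes and 7.79, 7.81 and 7.67 in mutants, and mutant b lay above wildtype d. Its log2 fold change was -0.08 (SE 0.08, 95% confidence interval -0.26 to 0.09, limma adjusted p = 0.681). Neither probe passed, and the difference between Pax3 and Olig3 was not tested.

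Somite and dermomyotome markers, which share tissue with Pax3 and Pax7, had a median of -0.02 over 13 of 15 listed genes, 7 negative and 6 positive. In limma 0 passed (0 lower and 1 higher at an unadjusted p under 0.05, the sclerotome gene Pax1 at 0.37, SE 0.08). Their summed level was 169 to 186 array medians in wildtypes and 166 to 208 in mutants. Neural crest markers, of cells that leave the dorsal neural tube and express Pax3, had 9 of 14 tested genes negative and a median of -0.07. In limma 0 of them passed (5 lower and 0 higher at an unadjusted p under 0.05), with Sox10 at -0.55 (SE 0.12, adjusted p = 0.181) and Erbb3 at -0.32 (SE 0.08, adjusted p = 0.239). Their summed level was 82.1 to 86.6 array medians in wildtypes and 78.2 to 81.3 in mutants. The sum includes the untested gene Snai2, whose spot was marked contaminated on mutants a and c and wildtypes d and e. Snai2 stood at 1.75, 3.94 and 1.26 array medians in mutants and 2.78, 1.79 and 4.04 in wildtypes. The gap between the sums is therefore not relied on. As mean log2 intensity the groups overlapped, at 8.16 to 8.30 in wildtypes and 8.07 to 8.18 in mutants. The part of these cells in the Pax3 values was not tested.

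Atoh1, the bHLH factor of the progenitors beside the roof plate, was above background on 1 of 3 wildtype arrays (d) and on 0 of 3 mutant arrays. Its log2 intensity was 6.81, 6.37 and 6.19 in wildtypes and 6.18, 6.19 and 6.22 in mutants. The mean was 6.46 ± 0.32 in wildtype, with array d apart from the other two, and 6.20 ± 0.02 in mutants (SD, n = 3 each). The groups overlapped, and no fold is given. Pax7, the paralogue of Pax3, was above background on 0 of 6 arrays, at 6.10, 6.11 and 6.32 in wildtypes and 6.10, 6.10 and 6.33 in mutants. A difference at either gene was not detectable at this signal. Of the 60 member spots, 0 were marked contaminated, irregular or masked, and the local background at them was 38 to 59 intensity units.

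The median log2 fold change was -0.18 over the 5 tested roof plate genes, of which 4 were negative, and -0.27 over the 2 tested dorsal progenitor genes, both negative. Over all tested probes the median was 0.01. With 5 and 2 genes the medians describe these genes only, and they were not tested against each other. Wnt3a and Olig3 stayed negative under every alternative run, from -0.53 to -0.40 for Wnt3a and from -0.53 to -0.35 for Olig3. Their adjusted p in limma ranged from 0.0968 to 0.434 for Wnt3a and from 0.122 to 0.495 for Olig3. Neural progenitor markers had 7 of 11 genes negative and a median of -0.07, with 0 past the threshold in limma (2 lower and 1 higher at an unadjusted p under 0.05). The lower pair were the progenitor factors Hes3 (-0.73, SE 0.12) and Sox2 (-0.50, SE 0.19, and -0.25 without mutant b). The mean log2 intensity of that list was 8.459 to 8.512 in wildtypes and 8.26 to 8.456 in mutants, without overlap, and its part in the Wnt3a and Olig3 differences was not tested. Erythroid markers had 12 of 13 tested genes positive and a median of 0.23, with 0 past the threshold in limma (0 lower and 3 higher at an unadjusted p under 0.05). Summed erythroid levels were 1378 to 1714 array medians in wildtypes and 1721 to 1919 in mutants. As mean log2 intensity the groups overlapped, at 10.64 to 11.04 in wildtypes and 10.87 to 11.08 in mutants. With the erythroid mean as a covariate the log2 fold change was -0.50 (SE 0.09) for Wnt3a and -0.41 (SE 0.09) for Olig3.

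**Figure D3:**
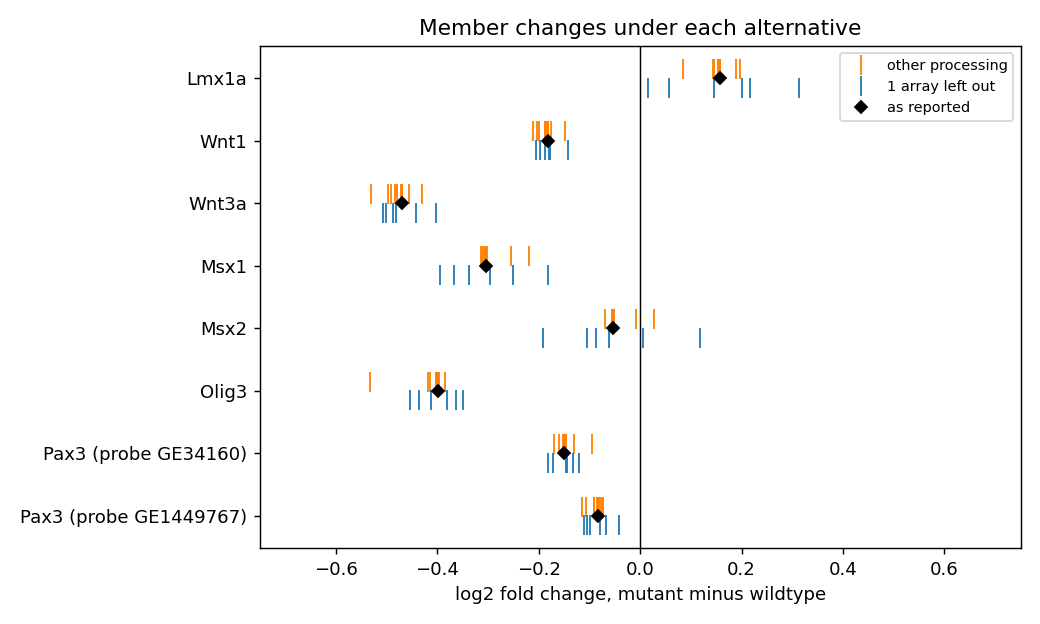
Log2 fold change (x axis) of the 8 tested member probes as reported (diamonds), with other processing (orange ticks) and with 1 array left out (blue ticks). Wnt3a stays between -0.53 and -0.40 and Olig3 between -0.53 and -0.35, Msx2 falls on both sides of 0, and Lmx1a stays above 0.

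Further roof plate genes differed in both directions. Of 16 listed genes 13 were tested, 9 with negative and 4 with positive differences, and the median log2 fold change was -0.10. In limma 0 passed the adjusted threshold (1 lower and 2 higher at an unadjusted p under 0.05). Zic1, a zinc finger factor of the dorsal neural tube, had the largest difference of the list, at -1.002 (SE 0.14, limma adjusted p = 0.0505). Its limma adjusted p ranged from 0.0251 without wildtype d to 0.260 without wildtype f. Zic1 passed in 6 of 19 alternatives, among them the fit as reported called at an adjusted p under 0.1 in place of 0.05. The ligand Bmp6 had a positive log2 fold change (0.19, SE 0.08, limma adjusted p = 0.393). The roof plate ligands Bmp4 (-0.08, SE 0.11) and Bmp7 (0.04, SE 0.11) differed by less than their errors, and Bmp5 was above background on 0 of 6 arrays. The WNT agonist Rspo3 stood at -0.28 (SE 0.14, limma adjusted p = 0.466).

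Other genes of dorsal progenitors and their interneurons also went in both directions. Of 18 listed genes 12 were tested, 6 negative and 6 positive, with a median log2 fold change of 0.01. In limma 0 passed the adjusted threshold (2 lower and 3 higher at an unadjusted p under 0.05). The lower pair were Gsx1 and Isl1, and the Isl1 probe is the same one counted in the limb field list above. Lhx2, a LIM factor of the interneurons that descend from Atoh1 progenitors, had log2 intensities of 6.19, 6.54 and 6.21 in wildtypes and 6.70, 6.88 and 6.91 in mutants. It was above background on 1 of the wildtype and 3 of the mutant arrays, so it met the filter through the mutants, where it was high. Its difference was 0.51 (SE 0.11, limma adjusted p = 0.192) and ranged from 0.45 to 1.45 over the alternatives. Its size and p-value are therefore not relied on, though it is among the 3 counted as higher. Lhx2 is also in the forebrain and midbrain list, with 8 genes tested, 3 negative and 5 positive, and a median of 0.04. In limma 0 of these passed (0 lower and 1 higher at an unadjusted p under 0.05, Lhx2 itself). The list's mean log2 intensity was 7.54 to 7.57 in wildtypes and 7.61 to 7.65 in mutants, without overlap. Its summed level was 35.9 to 41.9 and 42.6 to 46.8 array medians. Lhx2 is part of both measures, so neither is separate from its own difference. The part of such tissue in the Lhx2 difference was not tested. The proneural factors Neurog2 (0.33, SE 0.11) and Neurog1 (0.31, SE 0.12) were also positive, and Gsx1, a factor of more ventrally placed dorsal progenitors, was negative (-0.33, SE 0.12). Their limma adjusted p was 0.2912, 0.357 and 0.334. The markers Lhx9, Barhl1, Barhl2, Msx3 and Tlx3 were above background on 0 of 6 arrays.

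Receptors and targets of the dorsal signals showed no common direction. Of 20 listed BMP genes 16 were tested, 11 negative and 5 positive, with a median log2 fold change of -0.08. In limma 0 passed the adjusted threshold (1 lower and 2 higher at an unadjusted p under 0.05). The type I receptors differed in sign, with Acvr1 at 0.41 (SE 0.08, limma adjusted p = 0.171) and Bmpr1a at -0.27 (SE 0.12, adjusted p = 0.419). The antagonist Fst stood at -0.41 (SE 0.10, adjusted p = 0.238) and the BMP target Id3 at 0.24 (SE 0.08, adjusted p = 0.325) in limma. Of 20 listed WNT genes 18 were tested, 9 negative and 9 positive, with a median of 0.01 and 0 past the adjusted threshold in limma (0 lower and 1 higher at an unadjusted p under 0.05). The WNT co-receptor Lrp6 was that gene (0.41, SE 0.10, limma adjusted p = 0.237). The WNT targets Sp5 (-0.22, SE 0.10) and Lef1 (0.17, SE 0.08) differed in sign, and the modulator Sfrp2 stood at -0.27 (SE 0.13).

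**Figure D4:**
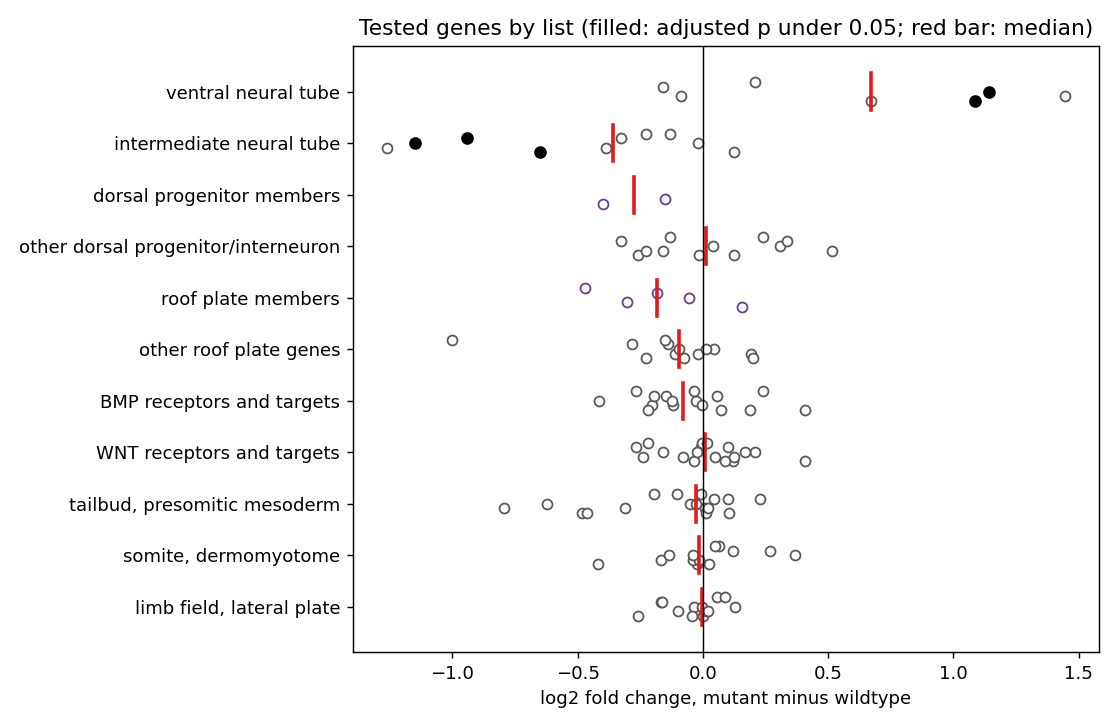
Log2 fold change (x axis) of each tested gene (circles), by list, with the list median as a red bar, genes past the adjusted threshold filled and the members outlined in violet. The members lie between -0.47 and 0.16, and among the lists drawn filled points appear in the ventral and intermediate lists only.

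The ventral and intermediate levels of the neural tube are set beside the dorsal members. In the ventral list 7 of 12 genes were tested, with a median log2 fold change of 0.67, and 2 rose past the adjusted threshold in limma, Nkx6-1 (1.14, SE 0.11) and Foxa2 (1.08, SE 0.14). In the intermediate list 10 of 12 were tested, with a median of -0.36, and 3 fell, Pax6 (-1.15, SE 0.09), Irx3 (-0.65, SE 0.07) and Prdm13 (-0.94, SE 0.13). Only 1 of 3 mutants had Prdm13 above background, so it met the filter through the wildtypes, where it was high. Its difference ranged from -1.90 to -0.82 over the alternatives, and its call is not relied on. Pax6 passed in 19 of 19 alternatives, Nkx6-1 in 15 of 19, Foxa2 and Irx3 in 11 of 19 each and Prdm13 in 8 of 18. These counts include the fit as reported called at an adjusted p under 0.1, which any gene past 0.05 passes. With 1 array left out, the adjusted p of Nkx6-1 was 0.0594 without wildtype d and 0.0624 without wildtype f. Of the 6 such fits, Foxa2 and Irx3 kept their call only in the one that left out mutant a, with adjusted p up to 0.232 and 0.113 in the others. Prdm13 kept its call only in the fit that left out wildtype f, with adjusted p up to 0.256 in the others. The difference between lists was not tested.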

How the data were processed

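Gene expression was measured on 6 arrays, 3 per group, grouped by the sample titles. Spots were quantified as intensity with CodeLink Expression Analysis 4.1.0.29054, per the file headers. The authors' deposited normalized intensity equalled the spot mean minus the local background median, divided by 1 factor per array (52.1 to 65.1), and the deposited series table held the same values. No source used here names a genome build for the probes. Fits were made in R 4.3.3 with limma 3.58.1. Background was corrected with normexp (offset 50) over all spots. Control spots were dropped, and contaminated, irregular or masked spots became missing values before quantile normalization of the log2 values. The offset makes the differences of dim genes smaller. Probes above background on at least 3 of 6 arrays, with 2 or more usable spots in each group, were compared with lmFit and eBayes (two-sided), and p-values were adjusted by Benjamini-Hochberg over all 21688 tested probes. For genes with several probes the lists use the brightest. Summed levels add deposited normalized intensities over a list's probes, tested or not, with contaminated and irregular spots kept. The fit was tested on simulated data, with calls at an adjusted p under 0.05. It recovered 43 of 100 probes changed by 0.5 log2 units and 86 of 100 changed by 1, with 6 false calls. The tested members differed by less than 0.5, so their failure to pass does not show that they are unchanged. The number of arrays limits the precision. The named genes were the members, Fkbp8, sex-linked genes, and of each list those past the threshold or up to 4 with the smallest p. Bmp4, Bmp7, T, Six3 and the genes listed as at background were named after their values were seen. Some listed genes are not reported here by name. The members and lists were chosen with earlier results of these data known. The labels give no pairing between the groups. Each slide held 1 array, so no slide block could be fitted. Protein sequences were not analysed here.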

Additional observations from a re-analysis of the deposited data

How the results depend on the processing

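The 19 alternatives include the fit as reported with the threshold raised to an adjusted p under 0.1. Under each of them the count of members past the adjusted threshold stayed at 0 (lowest limma adjusted p 0.0968, Wnt3a). The count over all probes, 26, ranged from 10 with the erythroid mean as a covariate to 39 without mutant a. It was 16 with median centring or with the filter on all 6 arrays, 13 with floored values, 12 without mutant b, 11 without wildtype d or f, 15 without wildtype e and 14 without X and Y genes, a setting added after seeing the data. The count of 4 members at an unadjusted p under 0.05 was 2 (Wnt3a and Olig3) with median centring and with the erythroid covariate, and ranged from 2 to 4 with arrays left out. The 4 with an array left out came without wildtype d and were not the same genes. Wnt1, Wnt3a and Olig3 were lower there, Lmx1a was higher (log2 fold change 0.31), and Msx1 was not counted. The count was 2 without mutant b or wildtype e. Over all 21688 tested probes the count at that level, 2654, also fell in these settings. It was 1840 with median centring, 1974 with the erythroid covariate, 2291 without mutant b and 1942 without wildtype e. The roof plate median, -0.18, moved by less than the spread between replicates in each alternative (-0.21 to -0.14). The dorsal progenitor median, -0.27, was -0.35 with floored values and -0.20 without the filter on dim probes, which adds Atoh1 and Pax7, and -0.32 to -0.25 with arrays left out. Signs held for each tested member probe but Msx2, which was 0.028 with median centring and -0.19 to 0.12 with arrays left out. The cause of these shifts was not tested. Slide as a block was not run, since each slide held 1 array. No paired analysis was possible because mutants and wildtypes share no replicate label. Signal over background limits Atoh1 and Pax7.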
